A study of Homo sapiens with 18 samples.

Results

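The collagens, the lysyl oxidases that cross-link them and fibronectin were followed in 2 prostate cancer cell lines after knockdown of Stat3 or of Stat5a and Stat5b. A gene was included when its symbol named a collagen chain, LOX, LOXL1 to LOXL4 or FN1 and it had a probe set annotated to that gene alone. Of the 19775 genes measured in this way, 49 were included: 43 collagen chains, 5 lysyl oxidases and fibronectin. Where a gene had several such probe sets, the one brightest on average across the 18 arrays stood for it.

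Collagens are triple helices of alpha chains. Fibrillar collagens such as type I and type III form the tensile fibres of connective tissue, type IV collagen forms the sheet of basement membranes, type VI forms beaded microfilaments, and the FACIT collagens, among them type XII, decorate the surface of fibrils. LOX and its relatives LOXL1 to LOXL4 oxidise lysine residues of collagen and elastin, which starts their covalent cross-linking. Fibronectin is a dimeric glycoprotein that binds integrins and on which cells deposit collagen. In tumours much of the collagen is made by fibroblasts, and carcinoma cells also make matrix of their own.

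DU145 and CWR22Rv1 are established human prostate cancer lines. DU145 came from a brain metastasis and does not depend on androgen, whereas CWR22Rv1 came from a relapsed xenograft and carries androgen receptor. The 6 groups were DU145 with scramble control siRNA, DU145 with Stat3 siRNA, DU145 with Stat5a/b siRNA, and CWR22Rv1 with the same 3 siRNAs. All cells, controls included, received siRNA with a lipid transfection reagent and were harvested at 48 h. Each group held 3 arrays, 18 in all. Each line is the progeny of 1 tumour, so a difference between the lines is a difference between 2 tumours' cells in culture. The labels describe triplicates but not separate cultures, so a p-value here reflects only how far these triplicates scatter, and that scatter may be technical.

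Values are log2 expression, so that 1 unit is a doubling of signal. The median of all values was 5.18, and 21 of the 49 genes had group means below it in all 6 groups. No detection calls were used here, so the distance of a dim value from background is unknown. With 3 arrays in a group precision is limited by that number. Arrays of 1 group correlated at 0.993 to 0.998. STAT3 signal fell to 32.6% of control in DU145 and 45.7% in CWR22Rv1 with Stat3 siRNA, and STAT5B to 39.1% and 53.4% with Stat5a/b siRNA. STAT5A was at 81.1% and 78.7% of control with that siRNA and did not pass the test in either line (adjusted p = 0.101 and 0.146, limma). For every value from these cultures, fewer cells making a transcript and less transcript per cell cannot be told apart.

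Upstream sequences are shown for genes whose values are described below and that had an entry in RefSeq's promoter windows of build GRCh38.p14. Entries were found for 36 of the 49 genes, in 51 windows of 250 bases before to 50 bases after a listed start. COL4A1 and COL4A2, the chains that assemble into the common type IV collagen molecule, lie head to head and are transcribed away from each other. Their listed starts are 127 bases apart. The 126 bases between them, at chr13:110307158-110307283 on the plus strand, are shown because both genes share them. LOX (chr5:122078260-122078409, minus strand) is shown because it rose with both siRNAs in DU145. COL12A1 (chr6:75206054-75206203, minus strand), FN1 (chr2:215436069-215436218, minus strand) and LOXL1 (chr15:73926312-73926461, plus strand) are shown because they fell with both. The stretches of LOX, COL12A1, FN1 and LOXL1 each hold the 150 bases before the first listed start. COL4A5 and COL1A1 also fell with both: COL4A5 had an entry but is not shown, and COL1A1 had none. Capitals mark the CCAAT box (CCAAT), the GC box (GGGCGG) or a match to the STAT pattern TTCNNNGAA, where N is any base.
COL4A1 and COL4A2: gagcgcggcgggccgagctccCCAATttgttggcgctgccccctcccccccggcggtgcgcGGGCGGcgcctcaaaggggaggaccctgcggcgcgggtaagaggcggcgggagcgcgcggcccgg
LOX: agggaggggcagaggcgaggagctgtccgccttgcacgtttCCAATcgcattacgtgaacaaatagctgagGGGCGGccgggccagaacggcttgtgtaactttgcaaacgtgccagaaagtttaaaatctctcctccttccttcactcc
COL12A1: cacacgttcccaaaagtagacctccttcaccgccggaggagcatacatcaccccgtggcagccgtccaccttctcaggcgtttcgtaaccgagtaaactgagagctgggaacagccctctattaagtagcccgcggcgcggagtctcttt
FN1: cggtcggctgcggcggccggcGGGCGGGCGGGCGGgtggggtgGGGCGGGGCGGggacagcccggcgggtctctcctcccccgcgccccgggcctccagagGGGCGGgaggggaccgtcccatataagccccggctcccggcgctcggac
LOXL1: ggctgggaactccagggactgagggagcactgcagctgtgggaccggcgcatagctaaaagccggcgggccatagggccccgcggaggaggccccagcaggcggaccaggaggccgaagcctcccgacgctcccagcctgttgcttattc
LOXL3: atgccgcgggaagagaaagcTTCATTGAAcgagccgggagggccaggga
The stretch between COL4A1 and COL4A2 is 80.2% G and C, and holds 1 CCAAT box and 1 GC box. The LOX stretch of 150 bases holds 1 CCAAT box and 1 GC box. The FN1 stretch holds 6 GC boxes, some of which overlap. No CCAAT or GC box was found in the printed bases of COL12A1 and LOXL1, nor the letters TATAAA in any of the 4 single-gene stretches of 150 bases. The last line holds 49 bases around the match in LOXL3 (chr2:74554137-74554185, minus strand), 1 of the 3 windows where a STAT pattern was found. Those of COL7A1 and COL11A2 are not shown.

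The pattern TTCNNNGAA was searched on both strands of every window. It was present in 3 of the 51 windows (5.88%), those of COL7A1, COL11A2 and LOXL3, against 7.66% of all 34943 windows. COL7A1, COL11A2 and LOXL3 did not pass the test in any comparison of siRNAs. The windows of COL4A1, COL4A2, COL12A1, FN1, LOX and LOXL1 did not hold these letters, which says nothing of sites elsewhere. CCAAT was present in 29.4% of the 51 windows against 34.6% of all, GGGCGG in 54.9% against 44.9%, TATAAA in 13.7% against 11.6%, and the AP-1 pattern TGANTCA in 1.96% against 7.72%. Windows of 1 gene can overlap, as can those of COL4A1 and COL4A2, so these shares are descriptions.

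In DU145 genes of the group rose and fell side by side. A change was called at an adjusted p under 0.05 in limma, over all genes. Stat3 siRNA gave 10 calls among the 49 genes (20.4%, against 15.8% of all genes), 4 higher (7.51% of all genes) and 6 lower (8.25%). Stat5a/b siRNA gave 11 calls (22.4%, against 24.3%), 3 higher (11.8%) and 8 lower (12.5%). In CWR22Rv1, 1 gene was called with Stat3 siRNA (2.04%, against 4.77% of all genes), a lower one (2.75% of all genes were called higher and 2.02% lower). There 3 were called with Stat5a/b siRNA (6.12%, against 6.46%), all higher (3.16% of all genes higher and 3.3% lower). These shares lie near or below the background, so the number of calls says nothing particular about matrix genes.

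Counting genes whose 3 siRNA arrays all lay on one side of the 3 control arrays gave 10 of 49 with Stat3 and 14 of 49 with Stat5a/b siRNA in DU145, against 26.2% and 34.4% of all genes. The same count in CWR22Rv1 was 7 and 9, against 32.3% and 31.1%. The median change of the 49 genes was -0.043, -0.068, -0.032 and 0.035 in these 4 comparisons, against 0.0056, 0.011, -0.0042 and 0.024 over all genes.

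**Figure D1:**
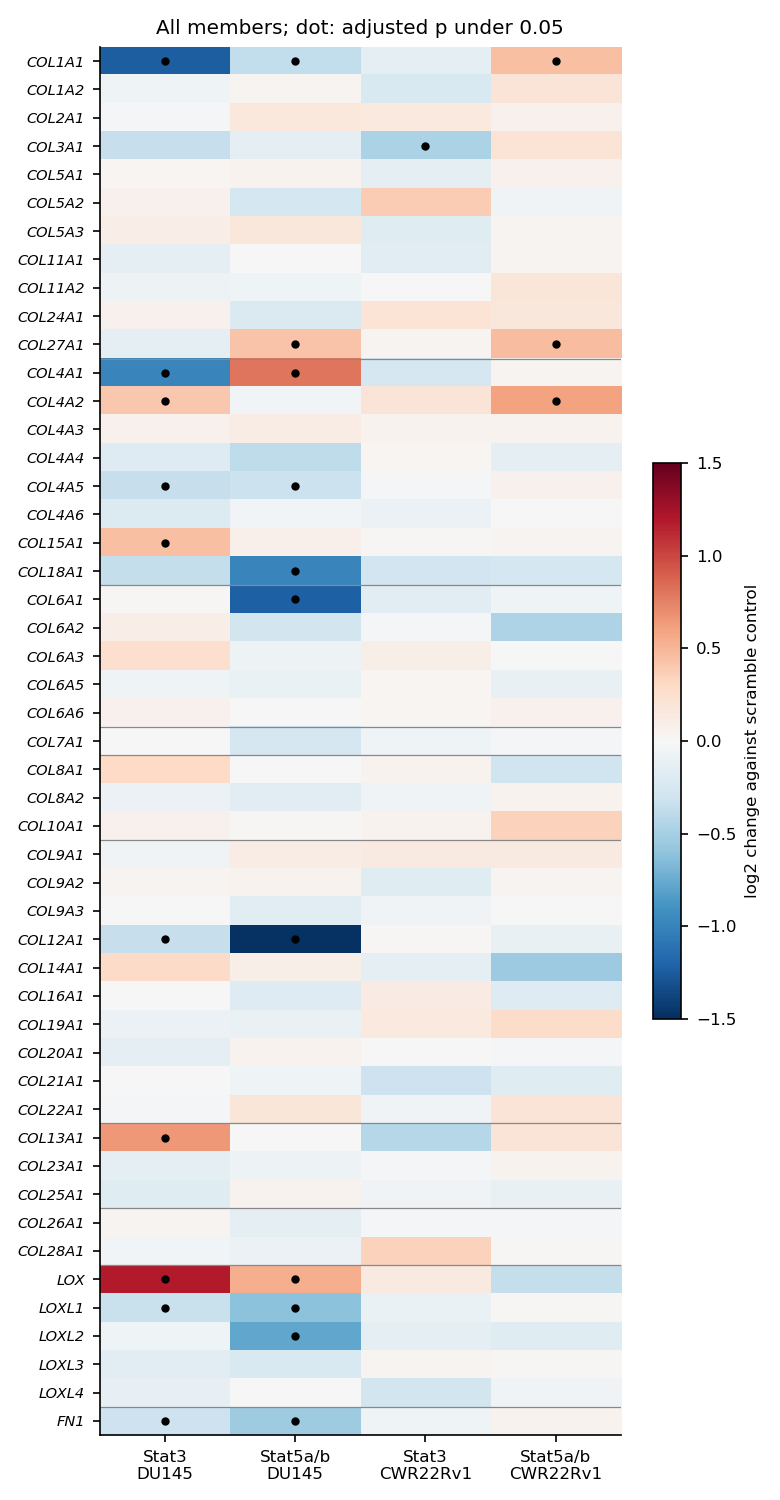
Log2 change against scramble control for each of the 49 genes, in structural order from fibrillar collagens at the top to fibronectin at the bottom, with grey lines between classes; colour gives the change from -1.5 to 1.5 and a dot marks an adjusted p under 0.05. The 10 and 11 dots of the DU145 columns are scattered over the classes, and the CWR22Rv1 columns hold 1 and 3.

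The 15 genes called in at least 1 of the 4 comparisons came from most classes: fibrillar COL1A1, COL3A1 and COL27A1; basement membrane COL4A1, COL4A2, COL4A5, COL15A1 and COL18A1; COL6A1; COL12A1; the transmembrane COL13A1; LOX, LOXL1 and LOXL2; and FN1. COL5A2 was called in addition between the siRNAs. The other 33 genes were not called in any of the 6 siRNA comparisons. They included COL1A2, the partner chain of COL1A1, and LOXL3 and LOXL4. Calls in DU145 depended on single arrays. With Stat3 siRNA 3 calls were left without Stat3 replicate 3 and 5 without control replicate 2 (13% of all genes called in each fit). With Stat5a/b siRNA 7 were left without Stat5a/b replicate 2 (20.6% of all genes). DU145 arrays were also more spread (median SD of a gene 0.112 to 0.126) than CWR22Rv1 arrays (0.0724 to 0.0824), while the test pools them. A fit to the DU145 arrays alone made 5 and 7 calls. It called fewer of all genes too, 7.83% and 14.5% against 15.8% and 24.3% in the pooled fit. It lost COL12A1, COL4A2, COL4A5, FN1 and LOXL1 with Stat3 siRNA (adjusted p 0.0585 to 0.146) and COL1A1, COL27A1, COL4A5 and LOX with Stat5a/b siRNA (adjusted p 0.0541 to 0.118). In CWR22Rv1 the single Stat3 call was lost without any 1 array (2.27% to 2.77% of all genes called). Of the 3 Stat5a/b calls, 1 was left without control replicate 1 or Stat5a/b replicate 2. None was left without control replicate 3 or Stat5a/b replicate 1 (3.63% to 4.27% of all genes called in these 4 fits). A fit to the CWR22Rv1 arrays alone made 2 calls with Stat3 siRNA, both lower (10.4% of all genes were called in that fit), and 7 with Stat5a/b siRNA, 5 higher and 2 lower (12%). It added COL21A1 with the former and COL10A1, COL19A1, COL14A1 and LOX with the latter, COL14A1 and LOX being the lower ones.

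COL1A1, the main chain of type I collagen, fell with both siRNAs in DU145 and rose with Stat5a/b siRNA in CWR22Rv1. Its log2 values in DU145 were 7.32, 7.25 and 6.96 with control siRNA, 6.04, 6.02 and 5.77 with Stat3 siRNA, and 6.93, 6.71 and 6.77 with Stat5a/b siRNA. The CWR22Rv1 arrays, in the same order of siRNAs, read 7.84, 7.91 and 7.79, then 7.82, 7.60 and 7.73, then 8.48, 8.22 and 8.17. The Stat3 arrays of DU145 lay below every other array of that line, and the Stat5a/b arrays of CWR22Rv1 lay above every other array of the series. With Stat3 siRNA COL1A1 fell to 42.4% of control in DU145 (log2 change -1.24 ± 0.11 SE, 3 arrays against 3, adjusted p = 8.71e-07, limma), as large without any 1 array (-1.35 to -1.15). With Stat5a/b siRNA the DU145 arrays gave a fall of 0.37 ± 0.11 (adjusted p = 0.0179), a call lost without control replicate 1, control replicate 2 or Stat5a/b replicate 2 (adjusted p 0.0658 to 0.0897). In CWR22Rv1 it rose by 0.45 ± 0.11 (adjusted p = 0.019), lost without control replicate 1, control replicate 3 or Stat5a/b replicate 1 (adjusted p 0.0683 to 0.101).

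The size and direction for COL1A1 depended on the probe set. The gene has 5 of them. A second one fell by 1.0 with Stat3 siRNA and by 0.61 with Stat5a/b siRNA in DU145 and was called in both. The other 3 were not called, with changes of -0.22, 0.09 and 0.17 with Stat3 siRNA. The one at 0.17 was not dim. In DU145 it read 6.62 to 6.73 with control, 6.82 to 6.88 with Stat3 and 6.79 to 6.97 with Stat5a/b siRNA. Averaged over all 5, COL1A1 fell by 0.44 with Stat3 siRNA (adjusted p = 0.00114) and by 0.24 with Stat5a/b siRNA (adjusted p = 0.0352) in DU145, and its rise of 0.20 in CWR22Rv1 did not pass (adjusted p = 0.209).

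COL1A2, which joins 2 COL1A1 chains in the type I molecule, was dim and was not called. Its values were 4.36, 4.35 and 4.43 in DU145 controls, 4.13, 4.35 and 4.47 with Stat3 siRNA and 4.43, 4.69 and 4.14 with Stat5a/b siRNA. The changes were -0.07 ± 0.13 and 0.04 ± 0.13 (adjusted p = 0.814 and 0.868), and the 3 groups overlapped. In CWR22Rv1 they were -0.23 ± 0.13 and 0.19 ± 0.13 (adjusted p = 0.418 and 0.522).

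COL3A1, the chain of type III collagen, was dim too. In CWR22Rv1 it read 4.78, 4.78 and 4.71 with control, 4.35, 4.38 and 4.12 with Stat3 and 5.10, 4.77 and 5.01 with Stat5a/b siRNA. The Stat3 arrays lay below all 6 others. The fall with Stat3 siRNA was 0.47 ± 0.12 (adjusted p = 0.033), and it lost its call whichever of the 6 arrays was left out (adjusted p 0.0567 to 0.156) and in the mean of all probe sets, where COL3A1 fell by 0.21 (adjusted p = 0.11). In DU145 the changes were -0.35 ± 0.12 with Stat3 siRNA (adjusted p = 0.0613) and -0.15 ± 0.12 with Stat5a/b siRNA (adjusted p = 0.423).

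COL27A1, a fibrillar collagen of cartilage, rose with Stat5a/b siRNA in both lines, by 0.43 ± 0.12 in DU145 (adjusted p = 0.0151) and by 0.46 ± 0.12 in CWR22Rv1 (adjusted p = 0.0311). The values were 6.37, 6.20 and 6.58 against 6.81, 7.01 and 6.64 in DU145, and 7.03, 7.31 and 7.09 against 7.53, 7.77 and 7.50 in CWR22Rv1, so the groups did not overlap in either line. In DU145 the call was lost without control replicate 2 or Stat5a/b replicate 2 (adjusted p = 0.0774 and 0.0792). In CWR22Rv1 it was lost without control replicate 1 or 3 or any Stat5a/b array (adjusted p 0.0502 to 0.162). Of the other 4 COL27A1 probe sets, 2 rose in DU145 (0.29 and 0.46) and none was called in CWR22Rv1. The mean over all 5 gave 0.25 in DU145 (adjusted p = 0.0577) and 0.28 in CWR22Rv1 (adjusted p = 0.0838).

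**Figure D2:**
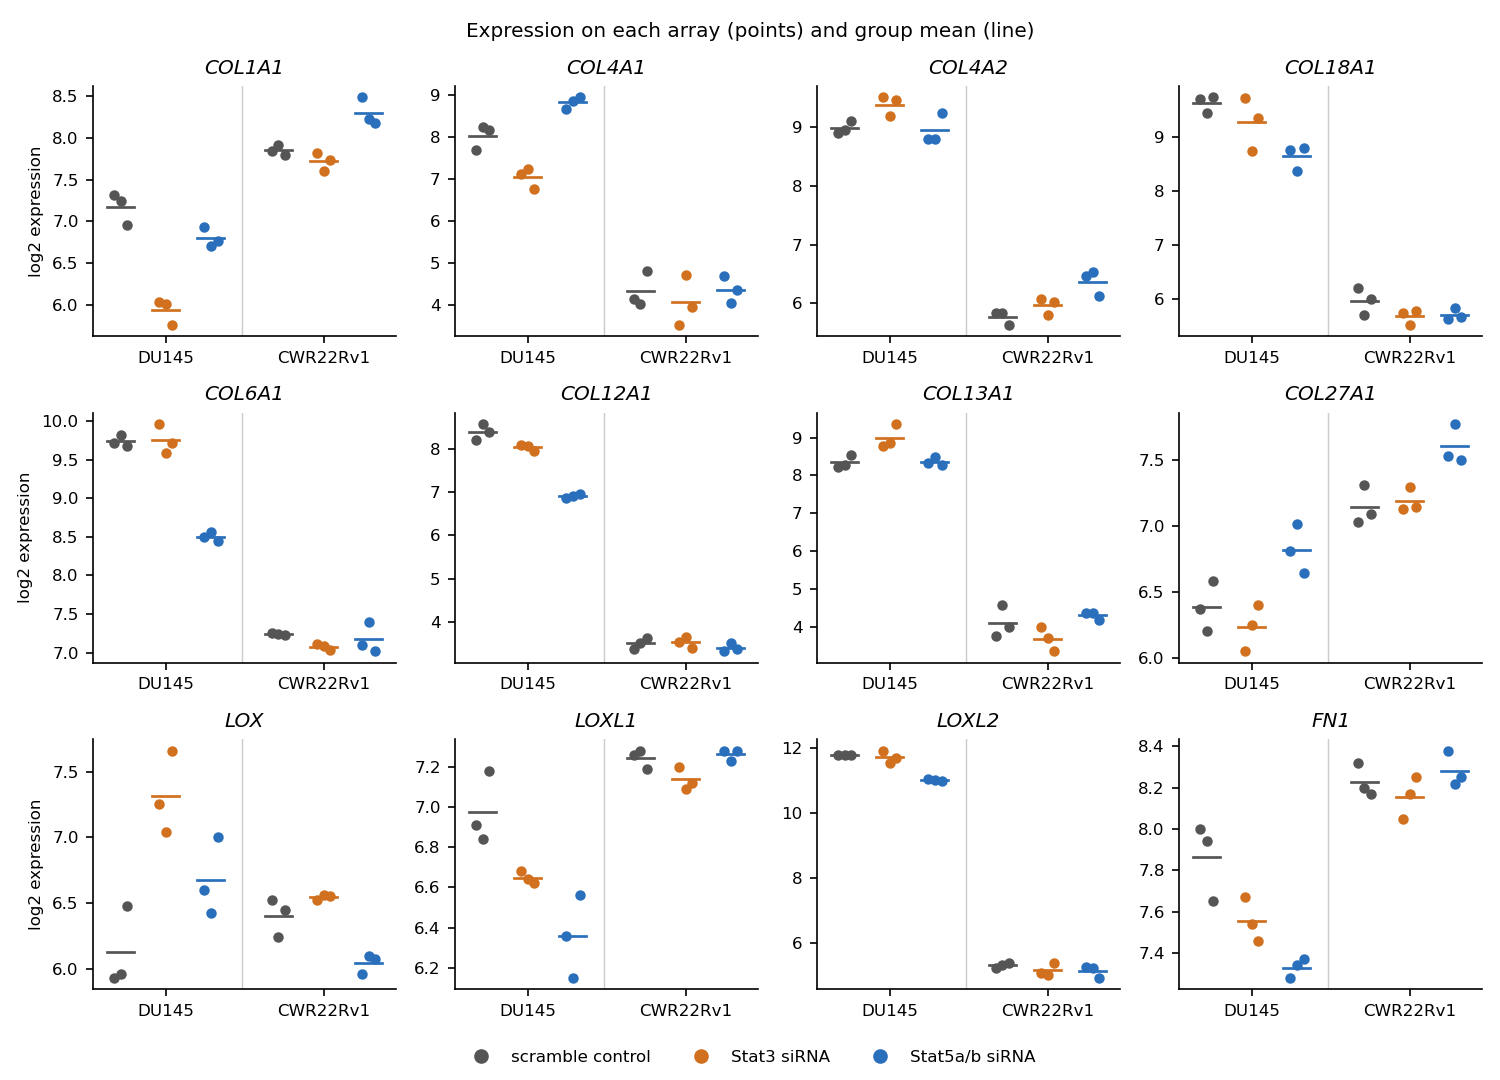
Log2 expression (vertical axis, own scale per panel) of 12 genes on each of the 18 arrays, by cell line and siRNA; points are arrays and lines are means of 3. COL1A1 falls furthest in the Stat3 arrays of DU145, COL6A1 and COL12A1 in its Stat5a/b arrays, and LOX is highest in the Stat3 arrays of DU145 (7.04 to 7.66).

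COL4A1 and COL4A2, which share the upstream stretch printed above, moved apart in DU145. COL4A1 read 7.70, 8.24 and 8.16 with control siRNA, 7.13, 7.24 and 6.76 with Stat3 siRNA and 8.67, 8.87 and 8.95 with Stat5a/b siRNA. These 3 groups did not overlap, with Stat3 arrays lowest and Stat5a/b arrays highest. COL4A1 fell to 50.4% of control with Stat3 siRNA (-0.99 ± 0.27, adjusted p = 0.0178) and rose to 174% with Stat5a/b siRNA (0.80 ± 0.27, adjusted p = 0.0386). The fall lost its call without control replicate 2, control replicate 3 or Stat3 replicate 3 (adjusted p 0.0577 to 0.0776). The rise lost it without any array but control replicate 2 (adjusted p 0.0534 to 0.162). The second COL4A1 probe set fell by 1.02 and rose by 0.71, and both were called, as was the mean of both (-1.01 and 0.75, adjusted p = 0.00177 and 0.00887).

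COL4A2 in DU145 read 8.89, 8.94 and 9.10 with control, 9.50, 9.18 and 9.45 with Stat3 and 8.79, 8.80 and 9.23 with Stat5a/b siRNA. It rose by 0.40 ± 0.13 with Stat3 siRNA (adjusted p = 0.0492) and changed by -0.04 ± 0.13 with Stat5a/b siRNA (adjusted p = 0.88). The rise lost its call without control replicate 1 or 2 or Stat3 replicate 1 or 3 (adjusted p 0.122 to 0.147), and with probe sets chosen for variance (adjusted p = 0.0577). Its second probe set read 0.44 higher and was not called, and the mean of both COL4A2 probe sets rose by 0.42 (adjusted p = 0.0305). In CWR22Rv1, where both genes were low, COL4A2 rose with Stat5a/b siRNA from 5.84, 5.84 and 5.64 to 6.46, 6.53 and 6.12 (0.60 ± 0.13, adjusted p = 0.0108). That call was lost without control replicate 3 or Stat5a/b replicate 1 or 2 (adjusted p 0.0505 to 0.0659) and was not seen in the second probe set (0.06) or the mean of both (0.33, adjusted p = 0.167). COL4A1 changed there by -0.25 ± 0.27 and 0.04 ± 0.27 (adjusted p = 0.726 and 0.972).

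**Figure D3:**
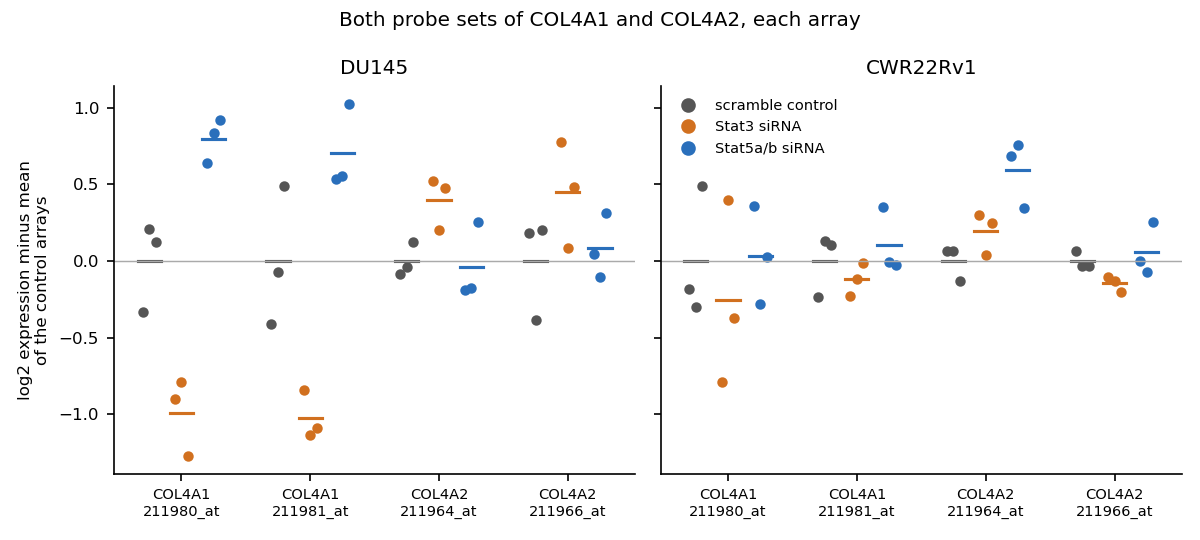
Log2 expression of both COL4A1 and both COL4A2 probe sets on each array, minus the mean of the line's 3 control arrays; points are arrays and short lines group means. In DU145 both COL4A1 probe sets lie below the control mean with Stat3 siRNA (-0.99 and -1.02 on average) and above it with Stat5a/b siRNA (0.80 and 0.71), while the COL4A2 means move by 0.44 or less.

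Among the other basement membrane collagens, COL18A1, whose fragment is endostatin, fell with Stat5a/b siRNA in DU145. Its values were 9.70, 9.44 and 9.73 with control, 9.71, 8.74 and 9.35 with Stat3 and 8.75, 8.37 and 8.80 with Stat5a/b siRNA. The Stat5a/b arrays lay below all controls, while the Stat3 arrays were widely spread. The fall to 50.4% of control (-0.99 ± 0.19, adjusted p = 0.00118) held without any 1 array (-1.08 to -0.85), and the second COL18A1 probe set fell by 0.78. With Stat3 siRNA the change was -0.36 ± 0.19 (adjusted p = 0.248).

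COL4A5, a chain of the type IV network of kidney and smooth muscle, was dim in DU145 and changed there by -0.34 ± 0.099 with Stat3 and -0.32 ± 0.099 with Stat5a/b siRNA (adjusted p = 0.0298 and 0.0265). Without control replicate 3 these changes were -0.20 and -0.18 and neither was called (adjusted p = 0.128 and 0.119). The Stat3 call was also lost without any 1 Stat3 array (adjusted p 0.0503 to 0.0888) and the Stat5a/b call without Stat5a/b replicate 1 or 2 (adjusted p = 0.102 and 0.0815). In the mean of both COL4A5 probe sets the changes were -0.10 and -0.17, neither called (adjusted p = 0.543 and 0.171). COL15A1, the close relative of COL18A1, was among the dimmest of the called genes. It read 2.40, 2.24 and 2.52 with control and 2.96, 3.0 and 2.57 with Stat3 siRNA in DU145, a rise of 0.45 ± 0.10 (adjusted p = 0.00585). COL4A3, COL4A4 and COL4A6 were not called with either siRNA in either line.

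COL6A1, an obligate chain of type VI collagen, fell in DU145 when Stat5a/b was the target, while no fall was detected with Stat3 siRNA. The values were 9.72, 9.82 and 9.67 with control, 9.96, 9.59 and 9.71 with Stat3 and 8.50, 8.56 and 8.45 with Stat5a/b siRNA. The Stat5a/b arrays lay more than 1 unit below all 6 others, which overlapped. COL6A1 fell to 42.5% of control (-1.23 ± 0.096, adjusted p = 1.81e-07; -1.27 to -1.19 without any 1 array) with Stat5a/b siRNA. With Stat3 siRNA the change was 0.02 ± 0.096 (adjusted p = 0.948). Its 8 probe sets differed in size: 3 were called lower, by 1.23, 0.53 and 0.37, 5 were not, and their mean fell by 0.28 (adjusted p = 0.000559). With Stat3 siRNA 1 of the 8, the dimmest COL6A1 probe set, was called higher (0.40). COL6A2, the second chain of the molecule and the neighbour of COL6A1 on chromosome 21, read 8.84, 8.74 and 8.44 with control and 8.50, 8.53 and 8.19 with Stat5a/b siRNA (-0.27 ± 0.25, adjusted p = 0.487). The remaining type VI genes, COL6A3, COL6A5 and COL6A6, were dim and not called.

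COL12A1, the FACIT collagen that bridges type I fibrils to other matrix, gave the lowest adjusted p among the 49 genes in these 4 comparisons. In DU145 it read 8.22, 8.59 and 8.40 with control, 8.10, 8.08 and 7.96 with Stat3 and 6.88, 6.92 and 6.96 with Stat5a/b siRNA. The 3 groups did not overlap, with the Stat5a/b arrays lowest. COL12A1 fell with Stat5a/b siRNA to 35.7% of control (-1.48 ± 0.093, adjusted p = 1.88e-08; -1.58 to -1.39 without any 1 array). With Stat3 siRNA it fell by 0.35 ± 0.093 (adjusted p = 0.0156), a call lost without control replicate 2 or Stat3 replicate 3 (adjusted p = 0.0845 and 0.0649). By level in the DU145 controls, the next brightest COL12A1 probe set fell by 0.87 with Stat3 and 0.71 with Stat5a/b siRNA. The one after it fell by 0.82 and 0.79, and all 4 falls were called. The remaining ones showed no clear fall. One read 4.07 to 4.79 with control, 4.03 to 4.66 with Stat3 and 4.45 to 4.6 with Stat5a/b siRNA, and the dimmest 2.61 to 2.68, 2.44 to 2.69 and 2.76 to 2.93. The mean over all 5 COL12A1 probe sets fell by 0.46 and 0.53 (adjusted p = 0.00266 and 0.000489). In CWR22Rv1 COL12A1 was dim (3.31 to 3.64 on all arrays) and not called. None of the other 9 FACIT genes was called against control in either line, their changes running from -0.54 to 0.29. The -0.54 was that of COL14A1 with Stat5a/b siRNA in CWR22Rv1 (adjusted p = 0.0535), which was called in the mean of its probe sets (-0.28, adjusted p = 0.0295), with an intensity trend (adjusted p = 0.0363) and in the CWR22Rv1 arrays alone (adjusted p = 0.0468).

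COL13A1, a transmembrane collagen of cell adhesion sites, rose with Stat3 siRNA in DU145 from 8.22, 8.28 and 8.54 to 8.77, 8.86 and 9.36 (0.65 ± 0.20, adjusted p = 0.0317). The Stat5a/b arrays, at 8.32, 8.48 and 8.27, lay among the controls. The call was lost without control replicate 1 or 2 or Stat3 replicate 3 (adjusted p 0.0895 to 0.149). The other 2 COL13A1 probe sets changed by 0.16 and 0.04 and were not called, and the mean of the 3 rose by 0.28 (adjusted p = 0.023). COL7A1 of the anchoring fibrils, the network collagens COL8A1, COL8A2 and COL10A1, and COL23A1, COL25A1, COL26A1 and COL28A1 were not called against control.

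The lysyl oxidases moved in both directions. LOX, the founding enzyme, rose in DU145 with both siRNAs. Its values were 5.93, 5.96 and 6.48 with control, 7.25, 7.04 and 7.66 with Stat3 and 6.60, 6.42 and 7.0 with Stat5a/b siRNA. All Stat3 arrays lay above all other DU145 arrays, while 1 Stat5a/b array lay below the highest control. With Stat3 siRNA LOX rose to 228% of control (1.19 ± 0.17, adjusted p = 0.000113; 1.02 to 1.37 without any 1 array), and a second probe set rose by 1.05. LOX rose with Stat5a/b siRNA by 0.55 ± 0.17 (adjusted p = 0.0244). That call was lost without control replicate 1 or 2 or Stat5a/b replicate 3 (adjusted p 0.0954 to 0.111) and in the mean of the 3 probe sets (0.42, adjusted p = 0.124). In CWR22Rv1 LOX read 6.52, 6.24 and 6.45 with control, 6.52, 6.56 and 6.55 with Stat3 and 5.96, 6.10 and 6.07 with Stat5a/b siRNA. The Stat5a/b arrays were the lowest there, a change of -0.36 ± 0.17 that did not pass (adjusted p = 0.273) but passed in a fit to the CWR22Rv1 arrays alone (adjusted p = 0.0143).

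LOXL1, the relative tied to elastic fibres, fell in DU145 where LOX rose. It read 6.91, 6.84 and 7.18 with control, 6.68, 6.64 and 6.62 with Stat3 and 6.36, 6.15 and 6.56 with Stat5a/b siRNA. All siRNA arrays lay below all controls. The fall was 0.62 ± 0.093 with Stat5a/b siRNA (adjusted p = 0.000133; -0.72 to -0.52 without any 1 array) and 0.33 ± 0.093 with Stat3 siRNA (adjusted p = 0.0232). The Stat3 call was lost without control replicate 3 or Stat3 replicate 2 or 3 (adjusted p 0.0563 to 0.11). LOXL1 has a single probe set.

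LOXL2, known for its links to tumour cell invasion, fell with Stat5a/b siRNA in DU145. It read 11.79 on each control array, 11.93, 11.56 and 11.69 with Stat3 and 11.04, 11.01 and 10.99 with Stat5a/b siRNA. The Stat5a/b arrays lay below all others, and the Stat3 arrays fell on both sides of the controls. The fall to 58.4% of control (-0.78 ± 0.11, adjusted p = 7.09e-05) held without any 1 array (-0.79 to -0.76), and a second LOXL2 probe set fell by 0.74; the mean of all 4 fell by 0.47 (adjusted p = 0.000558). With Stat3 siRNA it changed by -0.07 ± 0.11 (adjusted p = 0.762). LOXL3 changed by -0.17 ± 0.10 and -0.23 ± 0.10 in DU145 and LOXL4 by -0.12 ± 0.13 and 0.00 ± 0.13, none of them called, nor were these genes called in CWR22Rv1.

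FN1 fell with both siRNAs in DU145. Its values were 8.0, 7.94 and 7.65 with control, 7.67, 7.54 and 7.46 with Stat3 and 7.28, 7.34 and 7.37 with Stat5a/b siRNA. The Stat5a/b arrays lay below all others, and 1 Stat3 array lay just above the lowest control. The fall was 0.53 ± 0.089 with Stat5a/b siRNA (to 69.1% of control, adjusted p = 0.000351; -0.64 to -0.46 without any 1 array) and 0.31 ± 0.089 with Stat3 siRNA (adjusted p = 0.0262). The latter lost its call without control replicate 1 or 2 or Stat3 replicate 2 or 3 (adjusted p 0.0642 to 0.124). FN1 has 7 probe sets. The 4 with DU145 control means above 7 fell with Stat3 siRNA by 0.31 to 0.49 and with Stat5a/b siRNA by 0.30 to 0.53, all called. The 3 dimmer ones were not called, and the mean of all 7 fell by 0.22 and 0.24 (adjusted p = 0.0259 and 0.0115). In CWR22Rv1 FN1 read 8.32, 8.20 and 8.17 with control, 8.05, 8.17 and 8.25 with Stat3 and 8.38, 8.22 and 8.25 with Stat5a/b siRNA, with changes of -0.07 ± 0.089 and 0.05 ± 0.089 (adjusted p = 0.775 and 0.852).

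**Figure D4:**
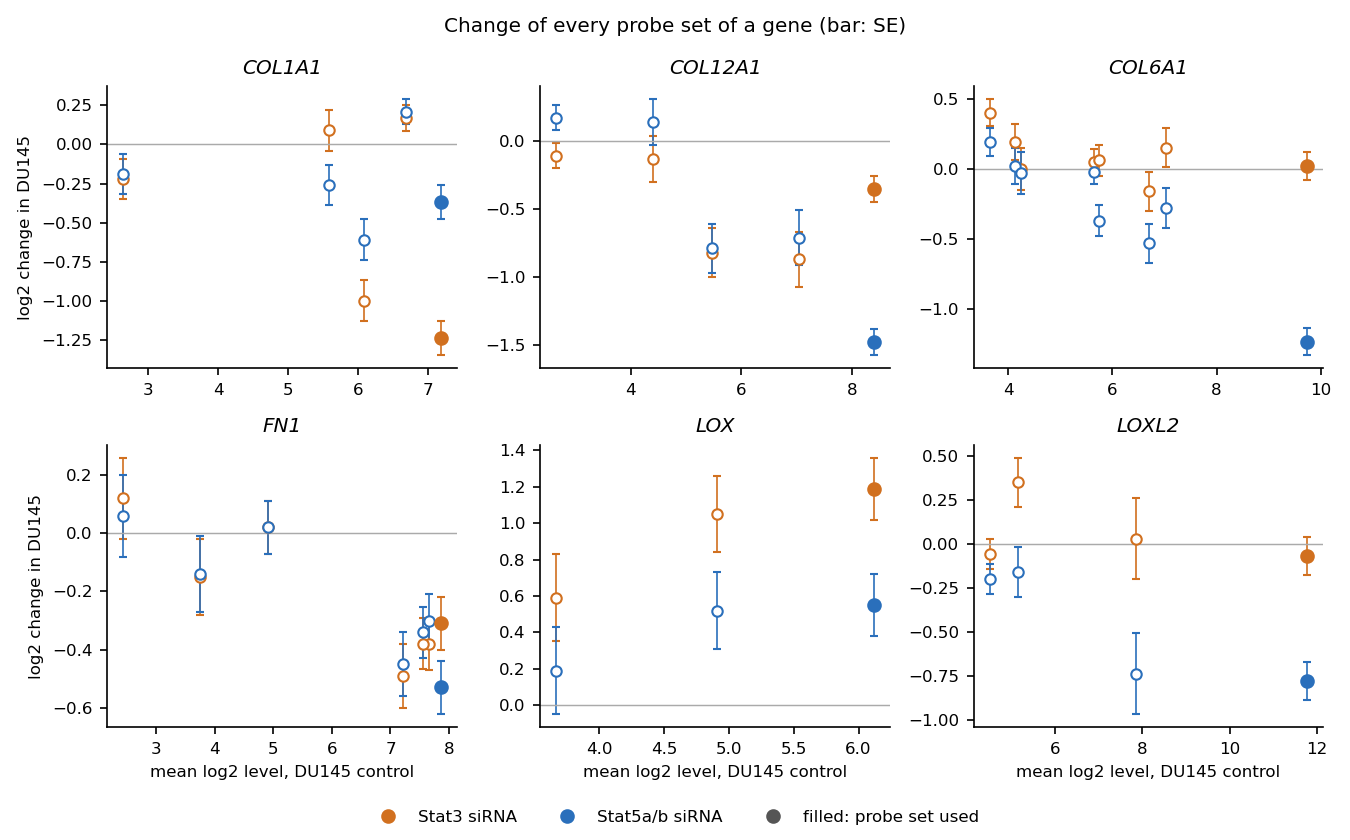
Log2 change in DU145 (vertical axis, bars are standard errors of the fit) of every probe set of 6 genes, set against its own mean log2 level in the DU145 controls; filled points are the probe sets used. For COL12A1 the used probe set separates the siRNAs (-0.35 and -1.48), whereas its next brightest ones do not (-0.87 and -0.71, -0.82 and -0.79).

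Because both siRNA groups of a line were set against the same 3 control arrays, the siRNAs were compared with each other directly. In DU145, 12 genes were called between them (24.5%, against 22.1% of all genes), 3 higher (11% of all genes) and 9 lower (11.2%) with Stat5a/b than with Stat3 siRNA, and 14 did not overlap (against 30.7%). COL4A1 was 345% of its Stat3 level with Stat5a/b siRNA (1.79 ± 0.27, adjusted p = 0.000135; 1.64 to 1.89 without any 1 array), and its second probe set was 1.73 higher. COL6A1 was lower by 1.25 ± 0.096 (adjusted p = 1.31e-07) and LOXL2 by 0.71 ± 0.11 (adjusted p = 0.000163), and both were called under every alternative run, COL6A1 at -0.37 in the mean of its probe sets. COL12A1 was lower (-1.13 ± 0.093, adjusted p = 2.83e-07) and COL1A1 higher (0.86 ± 0.11, adjusted p = 2.14e-05), but with the mean of all probe sets these differences were -0.08 (adjusted p = 0.619) and 0.19 (adjusted p = 0.0977). FN1 differed by -0.23 ± 0.089 (95% interval -0.41 to -0.04) and was not called (adjusted p = 0.0828).

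COL27A1 was higher with Stat5a/b than with Stat3 siRNA in DU145 (0.58 ± 0.12, adjusted p = 0.00218), also without any 1 array (0.49 to 0.67), but not in the mean of its probe sets (0.23, adjusted p = 0.0874). The other 6 calls in DU145 were of genes lower with Stat5a/b siRNA, and each was lost without some array. LOX was lower by 0.64 (adjusted p = 0.0109; 0.0559 and 0.0585 without Stat3 replicate 3 or Stat5a/b replicate 2). COL13A1 was lower by 0.64 (adjusted p = 0.0263; 0.07 to 0.117 without Stat3 replicate 3 or Stat5a/b replicate 1 or 3). COL18A1 was lower by 0.63 (adjusted p = 0.0256; 0.0696 to 0.137 without Stat3 replicate 1 or 3 or Stat5a/b replicate 2), and by 0.41 without Stat3 replicate 1. COL4A2 was lower by 0.44 (adjusted p = 0.0248; 0.0715 to 0.105 without Stat3 replicate 1 or 3 or Stat5a/b replicate 1 or 2). COL15A1 was lower by 0.37 (adjusted p = 0.0151; 0.0577 to 0.0713 without Stat3 replicate 1 or 2 or Stat5a/b replicate 2), and LOXL1 by 0.29 (adjusted p = 0.0326; 0.0542 to 0.166 without any array but Stat5a/b replicate 3, and by 0.19 without Stat5a/b replicate 2). In the fit to the DU145 arrays alone LOX, COL18A1, COL4A2, COL15A1 and LOXL1 were not called (adjusted p 0.0605 to 0.149), and LOX was not in the mean of its probe sets (-0.52, adjusted p = 0.0579). LOX and LOXL1, which moved in opposite directions against control, were thus both lower with Stat5a/b than with Stat3 siRNA.

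In CWR22Rv1, 4 genes were called between the siRNAs (8.16%, against 10.8% of all genes), 3 higher (4.7%), 1 lower (6.05%), and 19 did not overlap (against 36.8%). These 4 were fibrillar collagens, but 8 genes, 6 higher and 2 lower, were called with an intensity trend (12.9% of all genes) and also in the CWR22Rv1 arrays alone (19.1%). LOX (-0.50), COL4A2 (0.40) and COL1A2 (0.43) were added in both, with adjusted p of 0.0385, 0.0317 and 0.0472 under the trend. Without Stat3 replicate 3, Stat5a/b replicate 1 or Stat5a/b replicate 2, 2 calls were left (7.16% to 8.29% of all genes called). COL3A1 was higher with Stat5a/b siRNA by 0.68 ± 0.12 (adjusted p = 0.00149; 0.60 to 0.77 without any 1 array), COL1A1 by 0.58 ± 0.11 (adjusted p = 0.00208) and COL27A1 by 0.42 ± 0.12 (adjusted p = 0.0366). COL5A2, a chain that regulates fibril diameter and the chromosome 2 neighbour of COL3A1, was lower by 0.42 ± 0.12 (adjusted p = 0.0345), with 7.01, 6.84 and 7.25 on Stat3 and 6.52, 6.58 and 6.72 on Stat5a/b arrays. In the means of all probe sets COL3A1 was higher by 0.36 (adjusted p = 0.00251) and COL5A2 lower by 0.27 (adjusted p = 0.0126), and COL1A1 was not called (0.25, adjusted p = 0.0559). COL27A1 lost its call without any 1 of the 6 arrays (adjusted p 0.0504 to 0.158), and COL5A2 without Stat3 replicate 1 or 3 or Stat5a/b replicate 1 or 2 (adjusted p 0.0809 to 0.172) and after quantile normalisation (-0.37, adjusted p = 0.0829). The split among all called genes here moved with scaling, from 43.7% higher to 55.8% after quantile normalisation, and among those of Stat3 siRNA against control in CWR22Rv1 from 57.6% to 46.2%.

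Whether a siRNA changed a gene differently in the 2 lines was tested as the change in CWR22Rv1 minus the change in DU145. For Stat5a/b siRNA 9 of the 49 genes differed (18.4%, against 11.9% of all genes), 8 with the higher value in CWR22Rv1 (6.75% of all genes) and 1 with the lower (5.17%). For Stat3 siRNA 3 differed (6.12%, against 3%), 1 higher (1.82%) and 2 lower (1.18%). Among all called genes of the latter term 60.5% were higher, and 49.3% after quantile normalisation. Without CWR22Rv1 control replicate 1, 5 of the 9 Stat5a/b differences were called (8.67% of all genes). The Stat3 count was 1 without DU145 control replicate 1 or 2, CWR22Rv1 control replicate 3 or CWR22Rv1 Stat3 replicate 2 or 3. In those fits 1.53% to 2.21% of all genes were called.

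The fall of COL12A1 with Stat5a/b siRNA in DU145 had no counterpart in CWR22Rv1, where the gene was dim (difference 1.38 ± 0.13, adjusted p = 1.56e-05). The same held for COL6A1, which read 7.23 to 7.26 in CWR22Rv1 controls and 7.10, 7.40 and 7.02 with Stat5a/b siRNA (difference 1.17 ± 0.14, adjusted p = 6.88e-05). In the means of all probe sets these differences were 0.49 and 0.31 (adjusted p = 0.0245 and 0.00874). LOXL1 differed by 0.64 ± 0.13 (adjusted p = 0.00494), reading 7.26, 7.28 and 7.19 and then 7.28, 7.23 and 7.28 in CWR22Rv1. COL1A1 moved in opposite directions in the lines with Stat5a/b siRNA (difference 0.82 ± 0.15, adjusted p = 0.00262). With Stat3 siRNA its difference was 1.11 ± 0.15 (adjusted p = 0.00146). In the mean of COL1A1 probe sets these were 0.44 (adjusted p = 0.0194) and 0.38 (adjusted p = 0.0876). FN1 (0.59 ± 0.13, adjusted p = 0.00662) and LOXL2 (0.60 ± 0.15, adjusted p = 0.0178) fell in DU145 and were not called in CWR22Rv1. LOXL2 was low in CWR22Rv1, at 4.92 to 5.39 on all its arrays, so a fall there could be missed. The FN1 difference was 0.26 in the mean of probe sets (adjusted p = 0.079) and 0.43 with the most variable one (adjusted p = 0.0845), and that of LOXL2 lost its call without CWR22Rv1 control replicate 1 (adjusted p = 0.0505).

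LOX was the gene whose difference lay the other way with both siRNAs: -1.05 ± 0.24 for Stat3 siRNA (adjusted p = 0.0252) and -0.91 ± 0.24 for Stat5a/b siRNA (adjusted p = 0.0194). The first lost its call without any of 8 of the 12 arrays (adjusted p 0.053 to 0.0651): DU145 control replicate 1 or 2, DU145 Stat3 replicate 3, CWR22Rv1 control replicate 1 or 3, or any CWR22Rv1 Stat3 array. The second lost it without DU145 control replicate 1 or 2 or CWR22Rv1 control replicate 1 (adjusted p 0.0503 to 0.0544). In the mean of the LOX probe sets neither was called (-0.83 and -0.76, adjusted p = 0.117 and 0.0806). COL13A1 differed by -1.08 ± 0.28 with Stat3 siRNA (adjusted p = 0.0457), lost without any of 8 of the 12 arrays (adjusted p 0.0545 to 0.112): DU145 control or Stat3 replicates other than control replicate 3 and Stat3 replicate 1, or replicates 2 and 3 of the CWR22Rv1 control and Stat3 groups. COL4A2 differed by 0.63 ± 0.19 with Stat5a/b siRNA (adjusted p = 0.0364), lost without any of 9 of the 12 arrays (adjusted p 0.0509 to 0.0962), the exceptions being DU145 control replicate 1 and replicate 3 of each Stat5a/b group. In the means of probe sets COL13A1 differed by -0.42 (adjusted p = 0.0557) and COL4A2 by 0.30 (adjusted p = 0.32), neither called. COL13A1 was dim in CWR22Rv1, at 3.35 to 4.58 on its control and Stat3 arrays. COL4A1, called with both siRNAs in DU145, was not called for a difference between the lines (0.74 ± 0.38 and -0.76 ± 0.38, adjusted p = 0.354 and 0.218).

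The lines also differed in matrix genes with control siRNA, in a share no larger than that of all genes. Between their control arrays 27 of the 49 genes were called (55.1%, against 56.9% of all genes), 14 higher (30%) and 13 lower (27%) in CWR22Rv1, and 27 did not overlap (against 63.5%). Among genes lower in CWR22Rv1 the difference was largest for LOXL2, by 6.48 ± 0.11 log2 units, COL12A1 by 4.91 ± 0.093, COL13A1 by 4.24 ± 0.20, COL4A1 by 3.71 ± 0.27 and COL18A1 by 3.66 ± 0.19 (adjusted p from 2.19e-17 to 2.06e-09). LOXL2 read 5.21 to 5.39 in CWR22Rv1, near the median of all values, against 11.79 in DU145. The largest in the other direction were COL4A5 by 4.58 ± 0.099, COL9A3 of the type IX FACIT by 3.99 ± 0.21, COL14A1 by 3.73 ± 0.16, COL7A1 by 1.01 ± 0.11 and COL3A1 by 0.79 ± 0.12 (adjusted p from 3.88e-16 to 2.16e-05). COL4A5 read 9.18 to 9.23 in CWR22Rv1 and 4.40 to 4.91 in DU145, whereas COL4A1 and COL4A2 were 7.70 to 9.10 in DU145 and 4.02 to 5.84 in CWR22Rv1. The type IV chains therefore differed between the lines in opposite directions. These sizes are from the brightest probe set, and several were smaller or absent in others. Among these were LOXL2, COL13A1, COL12A1, COL4A5, COL14A1, COL7A1 and COL3A1. In DU145 and CWR22Rv1 controls a second LOXL2 probe set read 7.61 to 8.14 and 4.73 to 5.06, another 5.08 to 5.18 and 5.41 to 5.62. A second COL13A1 one read 6.23 to 6.3 and 5.95 to 6.2, and a second COL4A5 one 3.3 to 3.45 and 3.18 to 3.62. Another COL14A1 one read 3.57 to 3.95 and 4.01 to 4.45, and another COL3A1 one 3.02 to 3.79 and 3.3 to 3.51. The calls of these genes held in every setting run. COL1A2 and LOX were not called (0.07 ± 0.13 and 0.28 ± 0.17, adjusted p = 0.695 and 0.169).

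**Figure D5:**
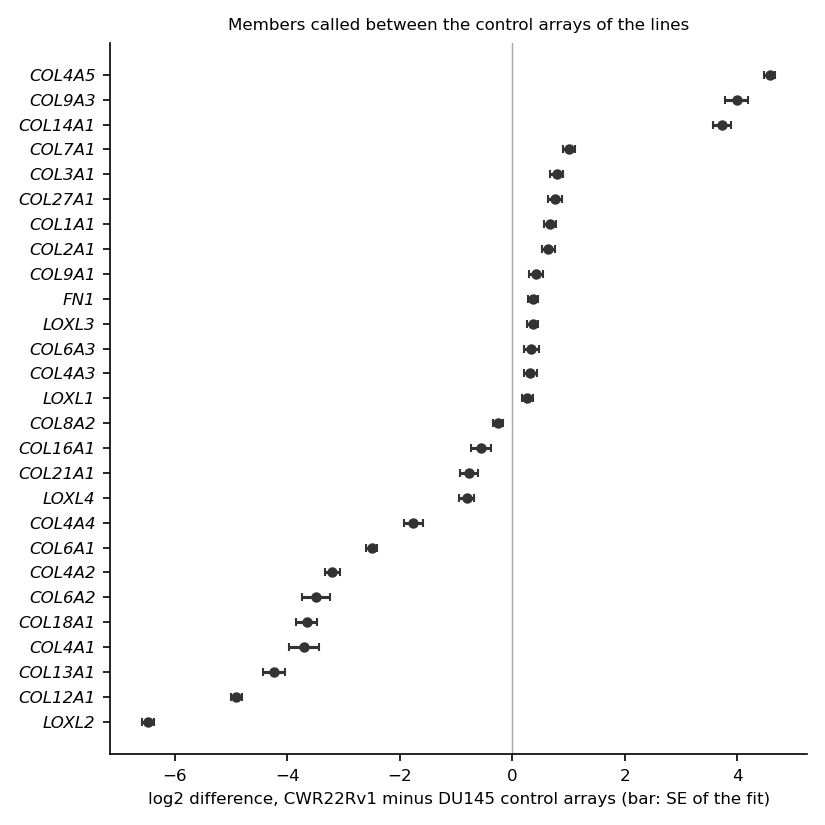
Log2 difference between the control arrays of the lines, CWR22Rv1 minus DU145, for the 27 genes called, with standard errors of the fit (3 arrays against 3). LOXL2 at -6.48 and COL4A5 at 4.58 mark the ends, and most genes higher in CWR22Rv1 differ by about 1 unit or less. Each gene is shown by its brightest probe set only.

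Genes that modify, trim and export collagen were described from a list of 29, of which 28 were measured. With Stat3 siRNA in DU145 2 rose and 8 fell, where 15.8% of all genes were called. KLHL12, a ubiquitin ligase adaptor for the large vesicles that carry procollagen, fell by 1.13 ± 0.052 (adjusted p = 1.54e-09) and the collagen chaperone SERPINH1 by 0.64 ± 0.09 (adjusted p = 0.000119). P4HA1, a prolyl hydroxylase subunit, fell by 0.51 ± 0.075 and COLGALT1, a collagen galactosyltransferase, by 0.39 ± 0.058. With Stat5a/b siRNA 3 rose and 7 fell (24.3% of all genes called), with P4HA1 at -0.80 ± 0.075 (adjusted p = 1.51e-06), the lysyl hydroxylase PLOD1 at -0.67 ± 0.093, and PCOLCE2 and ADAMTS2, which act in propeptide removal, at 0.31 ± 0.066 and 0.36 ± 0.082. The list's medians were -0.12 and -0.098, against 0.0056 and 0.011 over all genes, and -0.049 and 0.069 in CWR22Rv1, against -0.0042 and 0.024. In CWR22Rv1 1 rose and 1 fell with Stat3 siRNA (4.77% of all genes called): SEC23A of the secretory coat by 0.63 ± 0.073, and KLHL12 by -0.52 ± 0.052. With Stat5a/b siRNA 5 rose and 1 fell (6.46% of all genes called), among them SEC23A (0.54 ± 0.073), PCOLCE2 (0.32 ± 0.066) and KLHL12 (0.22 ± 0.052) upward and P4HA1 (-0.36 ± 0.075) downward.

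Of 30 genes for fibril partners and elastic fibres, 1 rose and 3 fell with Stat3 siRNA in DU145, and 7 fell with Stat5a/b siRNA. The counts stand against 15.8% and 24.3% of all genes called, and those in CWR22Rv1, 3 and 1, against 4.77% and 6.46%. Tenascin C, TNC, rose by 0.50 ± 0.081 with the former and fell by 0.50 ± 0.081 with the latter, and differed by -1.0 ± 0.081 between them (adjusted p = 2.27e-07). THBS1 fell by 1.07 ± 0.17 and 0.54 ± 0.17, EFEMP1 by 0.45 ± 0.11 and 0.37 ± 0.11, CCN2 by 0.59 ± 0.15 with Stat3 siRNA and ASPN by 0.40 ± 0.087 with Stat5a/b siRNA. In CWR22Rv1 TGFBI and LUM fell with Stat3 siRNA (-0.70 ± 0.17 and -0.66 ± 0.18), and LTBP1 rose with both siRNAs (0.30 ± 0.077 and 0.31 ± 0.077). Of 13 measured receptors for collagen and fibronectin, SDC4 fell by 0.92 ± 0.078 with Stat3 siRNA in DU145 and by 0.38 ± 0.078 in CWR22Rv1. The fibronectin receptor chain ITGA5 rose by 0.44 ± 0.082 with Stat3 siRNA in DU145, ITGB3 by 0.23 ± 0.069, and ITGAV fell by 0.29 ± 0.076; in all 2 rose and 3 fell (15.8% of all genes called), the fifth call being that of ITGA1 (-0.45 ± 0.14). With Stat5a/b siRNA 1 rose and 4 fell there (24.3% of all genes called): the collagen receptor ITGA1 (-0.84 ± 0.14), SDC4 (-0.40 ± 0.078), ITGAV (-0.38 ± 0.076) and ITGA5 (-0.34 ± 0.082) downward and DDR2 (0.58 ± 0.13) upward. In CWR22Rv1 2 fell with each siRNA (4.77% and 6.46% of all genes called): ITGAV beside SDC4 with Stat3 (-0.35 ± 0.076), and ITGA4 and ITGA1 with Stat5a/b (-0.54 ± 0.092 and -0.53 ± 0.14). Of 8 collagen-cleaving proteases, 2 rose with Stat3 siRNA in DU145 (15.8% of all genes called), MMP1 by 1.14 ± 0.24 and MMP14 by 0.43 ± 0.11. With Stat5a/b siRNA 1 rose there (24.3% of all genes called), MMP2 by 0.30 ± 0.10. In CWR22Rv1 1 rose with Stat5a/b siRNA (6.46% of all genes called), CTSK by 0.47 ± 0.13, and 0 were called with Stat3 siRNA (4.77%). None was called lower against control, but so few calls do not show a direction for the list.

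The epithelial markers KRT8, KRT18, EPCAM and CDH1 read 8.92 to 13.1 in all 6 groups. CDH1 fell in DU145 by 0.98 ± 0.078 with Stat3 and 1.18 ± 0.078 with Stat5a/b siRNA, beside the falls of COL1A1, COL12A1 and FN1, and EPCAM by 0.49 ± 0.082 and 0.40 ± 0.082. HOXB13 and KLK2, prostate luminal genes, were at 9.35 and 10.14 in CWR22Rv1 controls and at 4.44 and 3.54 in those of DU145. KLK3, the third measured gene of that list, was at 6.76 and 6.69 and was not called between the lines. Of the 7 fibroblast markers 2 lay above 5.18 in every group, and their mean per array ran from 4.52 to 5.23. PDGFRA, PDGFRB and FAP were at 4.73 or below in every group. DCN lay at 4.73 to 5.15. THY1 was higher, at 5.77 to 6.13, LUM was at 7.46 to 8.12 in CWR22Rv1 and 2.40 to 2.56 in DU145, and S100A4 at 7.43 to 8.48 in DU145 and 4.68 to 4.89 in CWR22Rv1. S100A4, which carcinoma cells also express, fell by 1.06 ± 0.16 with Stat5a/b siRNA in DU145, beside COL6A1 and COL12A1. LUM, likewise on the list, fell with Stat3 siRNA in CWR22Rv1 beside COL3A1. Of 4 leukocyte markers 0 or 1 lay above 5.18 in a group and of 5 endothelial markers 1 to 3. The leukocyte marker CD14 fell in DU145 by 1.09 ± 0.15 with Stat3 and 0.96 ± 0.15 with Stat5a/b siRNA. The part of these markers in the collagen values was not tested.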

How the data were processed

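The 18 RNA samples were hybridised to Affymetrix U133 Plus arrays. The deposited log2 values per probe set are the authors'; per the submitters' processing notes RMA and limma were used, with versions not given in the sources used here. They ran from 1.54 to 14.3 and were used as deposited. Of 54675 probe sets, 41091 had 1 gene symbol; each gene took the one with the highest mean. limma 3.58.1 in R 4.3.3 fitted 6 group means to the 18 arrays (lmFit, eBayes; 12 residual and 3.82 prior degrees of freedom), two-sided, with Benjamini-Hochberg adjustment over 19775 genes; the code was tested on simulated data. Standard errors pool the spread of all groups. Probe sets were adjusted over all 41091. Alternatives were scaling, probe set choice, a filter on dim genes, an intensity trend, a replicate block, 1 line alone and leaving out each array. Members, lists and the naming rule (FN1, the lysyl oxidases, type I, III and IV chains, every called member, up to 4 called genes per list and comparison) were chosen with earlier results of these data known.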

Additional observations from a re-analysis of the deposited data

Results flagged for a closer look

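In 12 tests the effect of a siRNA differed between the lines, given here as the change in CWR22Rv1 minus that in DU145. COL1A1 and LOX appear with both siRNAs. Of all genes, 3% were called in this way for Stat3 siRNA and 11.9% for Stat5a/b siRNA. With Stat3 siRNA these were COL1A1 (1.11), LOX (-1.05) and COL13A1 (-1.08). With Stat5a/b siRNA they were COL12A1 (1.38), COL6A1 (1.17), COL1A1 (0.82), LOXL1 (0.64), COL4A2 (0.63), LOXL2 (0.60), FN1 (0.59), COL19A1 (0.37) and LOX (-0.91). COL19A1, a dim FACIT gene, was called in neither line, and its difference (adjusted p = 0.0467, limma) lost its call without any of 10 of the 12 arrays (adjusted p 0.0513 to 0.123), the exceptions being DU145 control replicate 2 and DU145 Stat5a/b replicate 1.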

How the results depend on the processing

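Called members were followed through each alternative: 80 results in 1123 pairs of result and setting kept their direction in all and their call in 932, and 38 results kept it in every setting run. Genes not called gained calls in some settings, such as COL18A1 for the Stat5a/b difference between lines (adjusted p 0.0457 to 0.0483 with the mean of probe sets, without dim genes and with a trend). With the mean of all probe sets 0 genes were called with Stat3 siRNA in CWR22Rv1 (3.66% of all genes) and 0 between lines for Stat3 siRNA (2.2%). Leaving out dim genes left 14 of the 49 to test. This filter kept genes whose mean over all arrays lay above the median of such means, so it removed more than the 21 dim genes. Of the 14, 6 were called with Stat3 siRNA in DU145 (33.9% of all genes kept) and 12 between control arrays (82.1%). The lower counts reflect genes not tested, as 0 of the 50 results still tested lost their call. An intensity trend gave 8 calls between siRNAs in CWR22Rv1 (12.9% of all genes). DU145 arrays alone gave 5, 7 and 7 calls for Stat3, for Stat5a/b and between them (7.83%, 14.5% and 12% of all genes). CWR22Rv1 arrays alone gave 2, 7 and 8 (10.4%, 12% and 19.1%). Causes were not tested.

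Leaving out each array gave 3 to 9 calls for Stat3 siRNA and 7 to 11 for Stat5a/b siRNA in DU145, 0 to 0 and 0 to 3 in CWR22Rv1, 8 to 12 between siRNAs in DU145 and 2 to 5 in CWR22Rv1, 1 to 3 and 5 to 9 for the differences between lines of Stat3 and Stat5a/b siRNA, and 22 to 26 between control arrays. In CWR22Rv1 no Stat5a/b call was left without control replicate 3 or Stat5a/b replicate 1. Of all genes, 12.4% to 15.5% were called for Stat3 and 18.6% to 24.6% for Stat5a/b siRNA in these DU145 fits. In those of CWR22Rv1 the shares were 2.27% to 2.77% and 3.63% to 4.27%. Between siRNAs they were 18.2% to 21.9% in DU145 and 7.02% to 8.29% in CWR22Rv1. For the differences between lines they were 1.48% to 3.94% with Stat3 and 8.48% to 13.6% with Stat5a/b siRNA, and between control arrays 53.1% to 55.9%.

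The arrays of a line share replicate numbers without a stated pairing. Same-numbered arrays correlated in their deviations from the group mean at 0.012 to 0.33 in DU145 and -0.067 to 0.14 in CWR22Rv1, above 0.1 for 5 and 1 of 9 pairs; 9 of 9 DU145 and 5 of 9 CWR22Rv1 arrays correlated best with their own number. With the number as a replicate block, 2, 5 and 7 genes were called in CWR22Rv1 for Stat3, for Stat5a/b and between them (6.06%, 8.01% and 13.1% of all genes). The DU145 counts were 10, 10 and 14 (18.4%, 26.9% and 25.2%). Of the 80 results, 3 lost their call, among them COL4A1 in DU145 with Stat5a/b siRNA (adjusted p = 0.068). Signal over background is unknown, which limits what the 21 dim genes can show.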
